A study of Caenorhabditis elegans with 2 samples.

Results

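The 2 piRNA clusters of chromosome IV held 1577 of the 30000 regions that the authors listed for MADF-10 in the 2 replicates pooled. The authors label this pooled list as peaks and background, so a region in it is not by itself a site of binding. Of its regions, 6.23% were also in the authors' list of reproducible peaks. MADF-10 carries a MADF domain, which resembles the DNA-binding domain of Myb proteins. A region was counted as a member when its summit, the position of strongest signal, lay on chromosome IV between positions 4500000 and 7000000 (the left cluster, 756 regions) or between 13500000 and 17200000 (the right cluster, 821 regions) of genome build ce11. The choice used position alone, not signal. The rest of chromosome IV held 3684 regions and was the reference for the clusters.

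Binding had been measured by chromatin immunoprecipitation and sequencing (ChIP-seq) in 1 group of 2 biological replicates. Both came from Caenorhabditis elegans strain OP508, genotype unc-119(tm4063) III; wgIs508, in which an integrated transgene expresses MADF-10 with GFP and FLAG at its C terminus. Whole hermaphrodites were harvested as young adults 68 h after L1 synchronisation, and an anti-GFP antibody was used on sonicated chromatin. Both replicates therefore come from 1 transgenic line, and the tissues of the animal are mixed. There was no second condition, and a control library was not analysed here, so every comparison below is between places on the same chromosome.

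The lists of replicate 1 and replicate 2 held 25924 and 30000 regions, of which 1310 and 1633 lay in the clusters. Their read depth is unstated in the sources used here. Each region carries the authors' signal value, whose scale differs between lists: over cluster regions replicate 1 had a median of 10.1, replicate 2 one of 16.3, and the pooled list one of 21.5. The authors also gave a list of 1869 reproducible peaks, which are exactly the regions of the pooled list with a signal of 92.3 or more. Regions are not replicates, so values are given as descriptions, with the mean ± SD of the 2 replicates' own lists as the error, and with no p-value. The pooled list contains both replicates and is not independent of them.

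piRNAs are small RNAs of the germline that guide the Argonaute protein PRG-1 to foreign and transposon transcripts. In C. elegans they are called 21U-RNAs, because they are 21 bases long and begin with uridine. Most are transcribed one by one by RNA polymerase II from very many short genes packed into large clusters on chromosome IV, in introns and between genes. Each of the usual type has its own small promoter with an upstream sequence motif known as the Ruby motif, whose core reads CTGTTTCA.

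The annotation placed 2816 piRNA genes in the left cluster (1126 per Mb) and 11388 in the right cluster (3078 per Mb), against 510 in the rest of the chromosome. Of the 14204 piRNA genes of the clusters, 96.2% began with T in the genome, which is uridine in the RNA. CTGTTTCA was found on the strand of the gene within the 60 bases before the start of 34.8% of them, with its first base at a median of 46 bases before the start. Of all windows of 60 bases of the clusters, read on each strand, 2.10% held it. The shorter GTTTC, which lies within CTGTTTCA, was found before 75.8% of the genes, against 12.4% of all such windows.

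The 5 reproducible members with a summit within 100 bp of a piRNA start are shown first, since they are the strongest signal found at piRNA genes. The genes next to them are given on the strand of the piRNA, in capitals for the 21 bases of the piRNA and for every GTTTC in the 60 bases before them. 21ur-7377 is added as the gene among the 5 strongest near members of each cluster with the whole CTGTTTCA, here in capitals 45 bases before its start.
21ur-5229, left cluster, chrIV:5967029-5967109, + strand: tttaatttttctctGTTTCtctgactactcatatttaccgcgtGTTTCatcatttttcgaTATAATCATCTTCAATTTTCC
21ur-11261, left cluster, chrIV:5364359-5364439, + strand: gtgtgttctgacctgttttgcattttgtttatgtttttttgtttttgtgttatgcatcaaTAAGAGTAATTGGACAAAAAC
21ur-13200, right cluster, chrIV:16181035-16181115, - strand: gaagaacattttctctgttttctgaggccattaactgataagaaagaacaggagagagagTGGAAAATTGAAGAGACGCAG
21ur-12080, right cluster, chrIV:14414454-14414534, - strand: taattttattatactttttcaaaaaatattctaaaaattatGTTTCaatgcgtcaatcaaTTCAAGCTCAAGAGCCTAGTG
21ur-753, right cluster, chrIV:15793259-15793339, + strand: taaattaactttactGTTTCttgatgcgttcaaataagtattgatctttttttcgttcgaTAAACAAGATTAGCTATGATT
21ur-7377, left cluster, chrIV:5265097-5265177, - strand: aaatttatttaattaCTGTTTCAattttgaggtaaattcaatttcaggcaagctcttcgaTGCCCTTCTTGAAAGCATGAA

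CTGTTTCA was not found before any of the first 5 genes. The strongest summits of each cluster are set beside them, with the bases within 50 bp of the summit on the + strand and the summit base in capitals. These summit windows are richer in G and C than the piRNA gene windows printed above, and CTGTTTCA is not among their letters.
rpl-20 and Y17G9B.5 summit, left cluster, chrIV:4750013-4750113, + strand: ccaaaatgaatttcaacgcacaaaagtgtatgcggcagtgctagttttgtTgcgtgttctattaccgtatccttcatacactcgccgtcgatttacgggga
ubc-9 summit, left cluster, chrIV:4650742-4650842, + strand: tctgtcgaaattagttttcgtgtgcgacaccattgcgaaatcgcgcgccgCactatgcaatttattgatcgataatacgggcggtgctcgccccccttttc
lin-66 summit, right cluster, chrIV:13887613-13887713, + strand: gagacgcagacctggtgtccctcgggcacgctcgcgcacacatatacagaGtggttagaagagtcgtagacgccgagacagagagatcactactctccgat
prdh-1 intergenic summit, right cluster, chrIV:13877811-13877911, + strand: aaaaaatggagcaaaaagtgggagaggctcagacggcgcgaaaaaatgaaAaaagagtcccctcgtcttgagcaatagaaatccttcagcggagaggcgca
The G+C content of these 4 windows was 44.6%, 50.5%, 56.4% and 47.5%, in the order printed. That of the 6 piRNA gene windows ranged from 24.7% at 21ur-12080 to 39.5% at 21ur-13200. The piRNA gene windows are not centred on the summits next to them. Within 100 bp of those summits G+C content was 41.8%, 37.8%, 45.8%, 33.8%, 44.8% and 34.3%, in the order printed. By the same measure the 4 strongest summits had 38.8%, 43.8%, 59.7% and 46.3%, so the 2 sets overlapped.

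Regions were less dense in the clusters than in the rest of the chromosome, most of all in the right cluster. The pooled list held 254.4 regions per Mb in the clusters and 326.2 regions per Mb in the rest, a ratio of 0.780. The ratio was 0.790 in replicate 1 and 0.814 in replicate 2 (mean 0.802 ± 0.0169, SD, n = 2). Both replicates thus lay below 1 by more than the spread between them.

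The right cluster had 221.9 regions per Mb, which was 0.680 of the rest (0.712 ± 0.0188 in the replicates, SD, n = 2). The left cluster had 302.4 regions per Mb, 0.927 of the rest (0.936 ± 0.0140, SD, n = 2). Of the stretches outside, the one between the clusters had 335.4 regions per Mb, the one before the left cluster 315.8 and the short one after the right cluster 282.5. The right cluster was the lowest of the 5 stretches in the pooled list and in each replicate, with 186.8 per Mb in replicate 1 and 234.6 per Mb in replicate 2. The left cluster differed little from the stretch before it in either replicate, with 247.6 and 249.6 per Mb in replicate 1 and 306.0 and 307.8 per Mb in replicate 2. The order of density across the stretches was not that of piRNA genes alone: the stretch before the left cluster had 31 piRNA genes and was less dense in regions than the stretch between the clusters, which had 304.

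**Figure D1:**
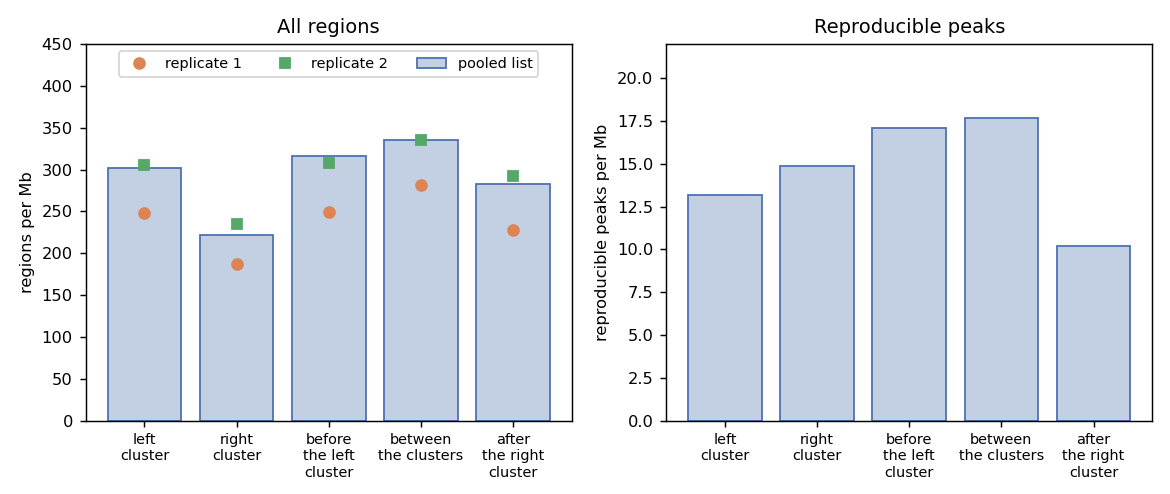
Regions per Mb of chromosome IV in the 2 piRNA clusters and the 3 stretches outside them (left panel: bars, pooled list; circles and squares, lists of the replicates), and reproducible peaks per Mb in the same stretches (right panel). The right cluster is lowest for all regions, at 221.9 per Mb in the pooled list, and the stretch after it is lowest for reproducible peaks, at 10.2 per Mb.

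The regions nearest to the edges of the windows are given as values only. At the left edge of the left cluster the first region inside, at the promoter of gbb-2, had a signal of 20.8, and the last one outside had 23.9. At its right edge the last region inside had 57.0 and the next outside, at the promoter of trxr-1, had 34.4. At the left edge of the right cluster both neighbours lay in introns of tbc-9. The inside one (23.9) was also in a promoter window, 993 bp before a tbc-9 start, and the outside one (18.0) lay 1167 bp past a tbc-9 start. At the right edge of the right cluster the values were 14.8 inside and 13.7 outside.

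Cluster regions were slightly weaker than those of the rest. Their median signal was 21.5 in the pooled list, against 22.9 in the rest, a log2 difference of -0.09. It was -0.10 in replicate 1 and -0.13 in replicate 2 (mean -0.11 ± 0.02, SD, n = 2). The difference had the same sign in both replicates but was small beside the spread of single regions. The median was 22.1 in the left cluster and 21.1 in the right cluster. The strongest member had a signal of 611.8 and the strongest region of the rest 3115.

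Strong binding was not missing from the clusters. Reproducible peaks made up 88 of the 1577 members (5.58%, exact binomial 95% interval 4.5% to 6.83%), against 195 of the 3684 regions of the rest (5.29%) and 6.23% of the whole pooled list. The share of the members was therefore near the background. It was 4.37% in the left cluster (33 peaks, interval 3.02% to 6.08%) and 6.70% in the right cluster (55 peaks, interval 5.09% to 8.63%). By overlap with a reproducible peak, replicate 1 had 6.30% in the left and 9.70% in the right cluster, and replicate 2 had 5.88% and 7.72%. The right cluster thus had the higher share in both replicates. When regions of the replicates' own lists that overlap a reproducible peak were counted, the share in the clusters minus that in the rest was -0.355 percentage points in replicate 1 and -0.122 in replicate 2. In the pooled list, where membership and not overlap was counted, it was +0.287. The sign of this difference was thus not stable across these unlike measures. Per Mb, the clusters held 14.2 reproducible peaks and the rest 17.3. Of the 88, 86 overlapped a region in both replicates' lists.

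Of the 12 strongest members of the left cluster, 8 had the summit in a promoter window, that is, from 1000 bp before to 200 bp after a protein-coding transcript start. The top region, at chrIV:4749912-4750242, had signals of 174.4 and 433.3 in replicates 1 and 2 and 611.8 pooled. Its summit lay 285 bp before the start of rpl-20, which encodes a protein of the large ribosomal subunit, and 177 bp before the uncharacterised Y17G9B.5. The next, at chrIV:4650670-4650922, had 96.6, 215.8 and 314.3 in the same order and lay 252 bp before ubc-9, the SUMO-conjugating enzyme. The nearest annotated piRNA starts were 17661 and 20488 bp away.

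Next came an intergenic region 2878 bp past the start of K08F11.1, with a pooled signal of 265.2, followed by the shared promoter of F29B9.11 and the histone demethylase gene jmjd-1.2 with 242.4. Then came sqd-1, which encodes an RNA-binding protein (229.3), the region before ipla-6 and mif-4, a gene of the macrophage migration inhibitory factor family (220.4), and usp-4 (218.3), all in promoter windows. The region at tRNA gene WBGene00022903 (211.9) was the only one of the 12 within 100 bp of a piRNA start. The last 4 of the 12 were a second intergenic region near K08F11.1 (206.7), the promoter of vha-8, a subunit of the vacuolar proton pump, and C17H12.2 (190.2), that of Y73B6BL.29 (178.3) and an intron of tyr-6 beside tRNA gene WBGene00023192 (165.4). Of the 4 outside promoter windows, 2 were thus at tRNA genes.

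In the right cluster the 12 strongest were divided between promoters and intergenic positions, except for a region in an intron of Y57G11C.22. The strongest, at chrIV:13887394-13887963, had signals of 154.3 and 298.8 in the replicates and 449.2 pooled, and lay 416 bp before lin-66, a gene of the heterochronic pathway that times larval development. The second, at chrIV:13877626-13878032, had 131.4, 276.5 and 405.1 and lay between genes, 1246 bp before prdh-1, which encodes proline dehydrogenase, and 213 bp from the start of 21ur-6372. The next lay before rpl-29, another ribosomal protein gene, and thoc-7, of the THO complex of mRNA export (399.3). These 3 summits lie between positions 13877861 and 13887663.

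Next were an intergenic region 3432 bp before rho-1, a small GTPase (272.6), the promoter of dnbp-1 (272.2) and that of ntl-11, a subunit of the CCR4-NOT deadenylase complex (201.1). The remaining 6 had pooled signals between 170.8 and 190.5. They included the promoters of snr-1, a core protein of the spliceosome, and snx-13 (189.4), and of dld-1, dihydrolipoamide dehydrogenase (170.8). The others lay in an intron of Y57G11C.22 (188.6) or between genes, nearest to sec-61.A, irld-18 and Y37A1A.2. None of the 12 was within 100 bp of a piRNA start, the nearest being 213 bp away.

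**Figure D2:**
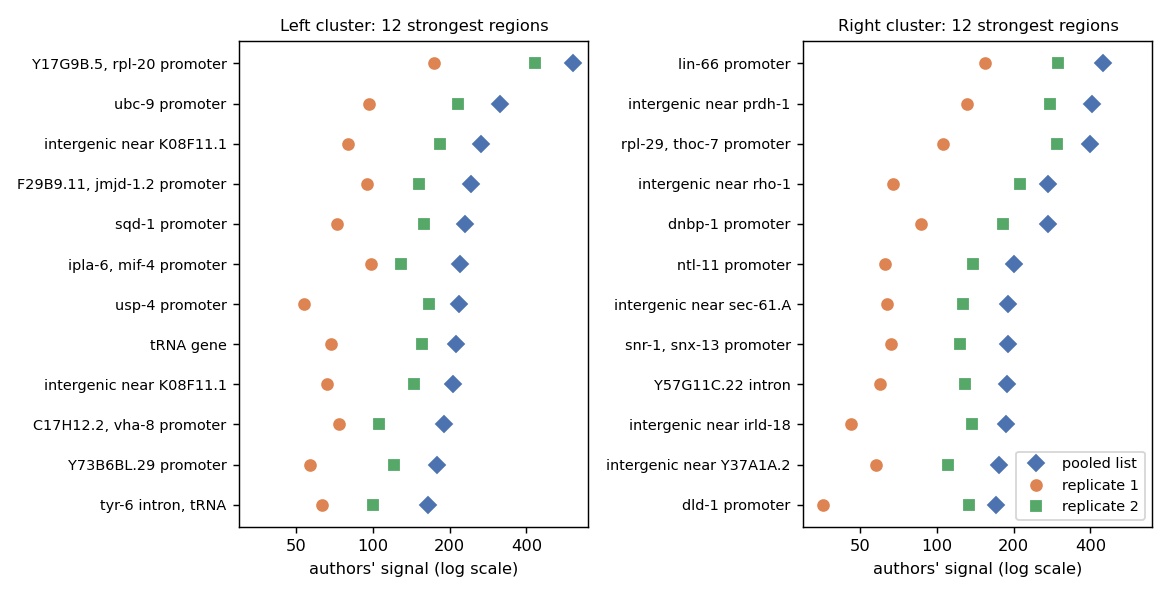
The authors' signal of the 12 strongest regions of each cluster in the pooled list (diamonds), replicate 1 (circles) and replicate 2 (squares), on a log axis, labelled by the gene at or nearest to the summit. In every row replicate 1 is the lowest and the pooled list the highest, and the top rows reach 611.8 at rpl-20 and 449.2 at lin-66.

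Summits lay near piRNA starts less often than the share of sequence there. In the left cluster 72 of 756 summits (9.52%) lay within 100 bp of a start, on either side, while 17.0% of its bases did, a ratio of 0.561. In the right cluster 201 of 821 summits (24.5%) did, against 38.5% of its bases, a ratio of 0.637. Over both clusters the share was 17.3% of summits (273 members, exact binomial 95% interval 15.5% to 19.3%) and 29.8% of bases.

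The same values per Mb were 169.7 near starts and 329.5 elsewhere in the left cluster, and 141.3 near starts and 272.3 elsewhere in the right cluster. The ratio of the 2 densities was 0.515 in the left cluster (replicates 0.588 ± 0.103, SD, n = 2) and 0.519 in the right cluster (0.552 ± 0.0542, SD, n = 2). Both clusters therefore showed it to a like degree, and both replicates lay below 1 in each. Of the 273 near members, 136 had the summit before the start, 24 within the 21 bases of the piRNA and 113 after them, with a median offset of 0 bp. These stretches differ in length, the one after the piRNA being shorter than the one before the start, so the counts show no preferred side. Cluster regions had a median width of 420 bp in the pooled list, so a summit does not place binding to within a few bases.

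Counted by gene, 400 of the 14204 piRNA genes (2.82%) had a summit within 100 bp of their start, 90 of 2816 in the left cluster and 310 of 11388 in the right cluster. The replicates' lists gave 2.29% and 3.33% (mean 2.81 ± 0.737%, SD, n = 2). In the rest of the chromosome 26 of 510 piRNA genes had one (5.10%, interval 3.36% to 7.38%), but the replicates' lists gave 2.16% and 5.49% there. The share in the clusters was below that in the rest in replicate 2 and not in replicate 1, so no difference held in both. Piled up over all starts of a cluster, summits were sparsest at the start itself. In the pooled list the 100 bp centred on the start had 117.2 summits per Mb in the left cluster and 115.9 in the right cluster, each the lowest of the 21 bins out to 1000 bp. In replicate 2 the lowest bin of the left cluster was the one centred 100 bp before the start, at 177.6, with 206.0 at the start. A summit was counted once for every start within reach, and the windows around neighbouring starts overlap.

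**Figure D3:**
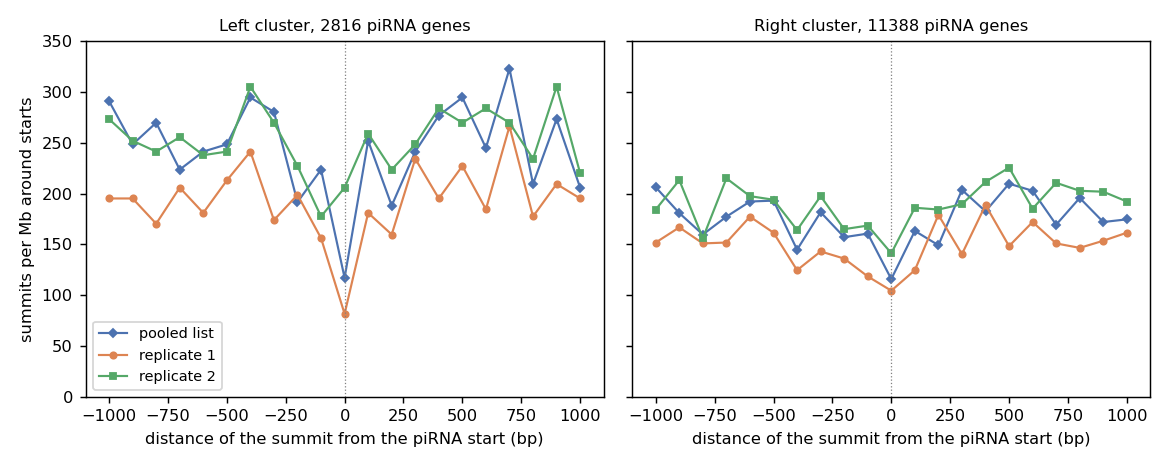
Region summits per Mb against the distance from annotated piRNA starts, in bins of 100 bp and in the direction of the piRNA gene (negative, before the start), for the pooled list and both replicates. The lines dip at 0 bp, to 117.2 per Mb in the left cluster and 115.9 in the right cluster in the pooled list, while replicate 2 in the left cluster dips at -100 bp.

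Members near starts were weaker than the other members. Their median signal was 18.5 and that of the others 22.8 in the pooled list, a log2 difference of -0.31. The difference was -0.32 in replicate 1 and -0.27 in replicate 2 (mean -0.29 ± 0.03, SD, n = 2), and it was -0.28 in the left and -0.33 in the right cluster. The others had the level of the rest of the chromosome, 22.9. Only 5 of the 273 near members were reproducible peaks (1.83%), against 6.37% of the others. Reproducible peaks are those with a pooled signal of 92.3 or more, so these shares describe the upper end of the same signal. Near members were also less often found in both replicates' own lists: 84 of 273 overlapped a region in each (30.8%), against 50.9% of all members, which include them, and 54.4% of the rest. The 23 regions near piRNA starts in the rest were alike, with 7 (30.4%) in both lists. Their median signal was 18.1 in the pooled list, against 22.9 for other regions there. That log2 difference was -0.46 in replicate 1 and -0.10 in replicate 2.

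**Figure D4:**
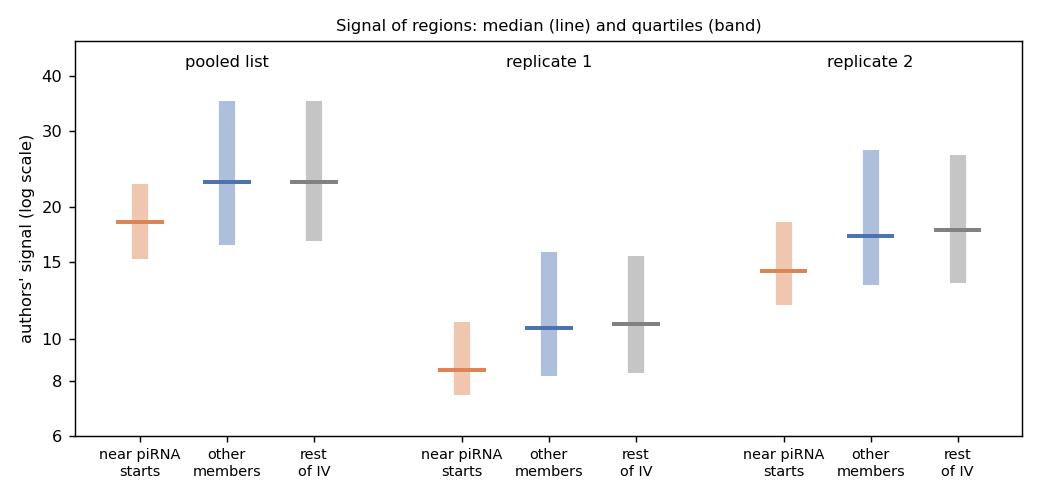
Median (line) and quartiles (band) of the authors' signal, on a log axis, for cluster regions within 100 bp of a piRNA start, other cluster regions and regions of the rest of chromosome IV, in each list. Regions near starts are lowest in every list, with medians of 8.51 and 14.3 in replicates 1 and 2 and 18.5 in the pooled list.

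The 5 reproducible near members stood at other features or between genes. In the left cluster the region 72 bp past the start of 21ur-5229, at chrIV:5967085-5967260, had signals of 68.7 and 156.4 in the replicates and 211.9 pooled, and its summit lay inside tRNA gene WBGene00022903. The region 79 bp before the start of 21ur-11261 had 41.1, 57.4 and 100.4 and lay 34 bp before hda-6, a histone deacetylase gene. In the right cluster the region 98 bp past the start of 21ur-753 had 26.9, 67.4 and 99.1, with the summit inside tRNA gene WBGene00014606. So 3 of the 5 had a tRNA gene or a coding promoter within reach. This was near the share among all reproducible peaks. In a promoter window or within 200 bp of a tRNA gene lay 59 of the 88 reproducible members (67.0%) and 63.6% of reproducible peaks of the rest.

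The other 2 were intergenic. The region 6 bp before the start of 21ur-13200, at chrIV:16180851-16181270, had 51.6, 99.3 and 146.4 and was the closest to a piRNA start of the 5. That at 21ur-12080 had 32.5, 76.3 and 112.3 and lay 61 bp past the start, 1519 bp before xdh-1, the xanthine dehydrogenase gene. In the left cluster the next in signal were at 21ur-4109, in the promoter window of the UDP-glucuronosyltransferase gene ugt-20 (69.8), at 21ur-7377 (50.9) and at 21ur-15151 (49.7). In the right cluster they were at 21ur-11151 (71.0) and 21ur-12294 (67.8). The region at 21ur-7377 was 420 bp wide and covered both the piRNA and its CTGTTTCA printed above. Its summit was 20 bp before the start, and its signals were 24.4 in replicate 1 and 24.6 in replicate 2.

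CTGTTTCA was rarer around cluster summits than in the clusters at large. It lay, on either strand, within 100 bp of 133 of the 1577 summits (8.43%, interval 7.11% to 9.92%), while 14.7% of all windows of the same length tiled over the clusters held it. The share was 6.08% of summits and 10.0% of windows in the left cluster, and 10.6% and 17.8% in the right cluster. In the replicates' lists 8.35 ± 1.01% of cluster summits held it (SD, n = 2). Among the 88 reproducible members 1 held it (interval 0.0288% to 6.17%). In the rest of the chromosome 1.33% of summits and 1.55% of windows held it, so the higher share at cluster summits than at those of the rest went with a still higher share of cluster sequence. Of piRNA genes with CTGTTTCA in the 60 bases before the start, 2.47% had a summit within 100 bp, against 3.00% of those without it. A match is a string of letters and not a measured site.

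Base composition differed along with these values. The median G+C content within 100 bp of the summit was 28.9% for members near piRNA starts, 37.8% for the other members, 44.3% for reproducible members and 36.8% for regions of the rest. Over tiles of 200 bp, those of the clusters with a piRNA start averaged 28.5% and those without one 34.8%. Tiles below 25% made up 11.4% of the clusters and those between 25 and 30% another 27.8%, against 5.44% and 15.7% of the rest. Region density was highest in tiles of 40% G+C and over, in the clusters and in the rest, so tiles were compared within bands of G+C content.

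Within bands, the clusters together were less dense than the rest in tiles below 35% G+C. Tiles below 25% G+C had 138.7 summits per Mb in the clusters and 250.6 in the rest, a ratio of 0.554 (replicates 0.581 ± 0.0507, SD, n = 2). Between 25 and 30% the ratio was 0.578 (0.674 ± 0.0240) and between 30 and 35% it was 0.763 (0.817 ± 0.0331). Between 35 and 40% it was 1.09 (1.02 ± 0.0821), and at 40% and over, with 442.6 summits per Mb in the clusters and 437.5 in the rest, it was 1.01 (1.03 ± 0.0524). The gap in density was thus found below 35% G+C, where both replicates lay below 1, and in the upper bands the replicates' mean for both clusters together differed from 1 by less than their SD. Between 35 and 40% the left cluster alone was denser than the rest, with a ratio of 1.21 (1.14 ± 0.0442, SD, n = 2), and the right cluster had 0.974 (0.903 ± 0.118). The gap in the lower bands was wider in the right cluster, with ratios of 0.482 and 0.501 in the lowest 2 bands of the pooled list, than in the left cluster, with 0.781 and 0.722. The replicates gave 0.522 ± 0.00615 and 0.597 ± 0.00790 in the right cluster, and 0.772 ± 0.232 and 0.818 ± 0.0540 in the left. Between 30 and 35% the right cluster had 0.611 (0.709 ± 0.0305). The left cluster had 0.947 there (0.949 ± 0.0362), so it differed little from the rest in that band.

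The gap between tiles with and without a piRNA start differed between bands and between the clusters. Over all tiles of the clusters the ratio was 0.516, with 153.3 summits per Mb in tiles with a start and 297.0 in those without. In the right cluster it was 0.551 over all tiles, 0.849 below 25% G+C (112.7 and 132.8 per Mb), 0.962 between 25 and 30% (142.0 and 147.6 per Mb) and 0.857 between 30 and 35% (156.8 and 183.1 per Mb). In the replicates the ratio of the right cluster between 25 and 30% was 0.953 in replicate 1 and 0.946 in replicate 2, and below 25% it was 0.990 ± 0.124 (SD, n = 2). Between 30 and 35% the replicates gave 0.658 and 0.822 (0.740 ± 0.116), below the pooled value. Below 30% G+C, tiles of the right cluster with a piRNA start were thus close in density to those without, and above it they were less dense in both replicates. Between 35 and 40% the ratio was 0.693, on 20 summits in tiles with a start (replicates 0.701 ± 0.00336). At 40% and over it was 0.701, on 11 such summits (0.765 ± 0.128). The upper 2 bands of the right cluster thus also rest on few summits, whatever the SD of the 2 replicates.

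In the left cluster the ratio was 0.523 over all tiles, 0.719 between 25 and 30% (0.759 ± 0.0761) and 0.585 between 30 and 35% (0.707 ± 0.0280). Below 25% it was 1.13 and rested on 13 summits in tiles with a start, and the replicates gave 0.409 and 1.26. Between 35 and 40% it was 0.460, on 7 summits in tiles with a start, and the replicates gave 0.753 and 0.194. At 40% and over it was 0.252, on 1 such summit, and the replicates gave 0.827 and 0.792. The lowest and the upper 2 bands of the left cluster thus rest on few summits. How far base composition accounts for the low density at piRNA starts was not tested, and mappability of reads, which can vary with composition, was not measured here.

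**Figure D5:**
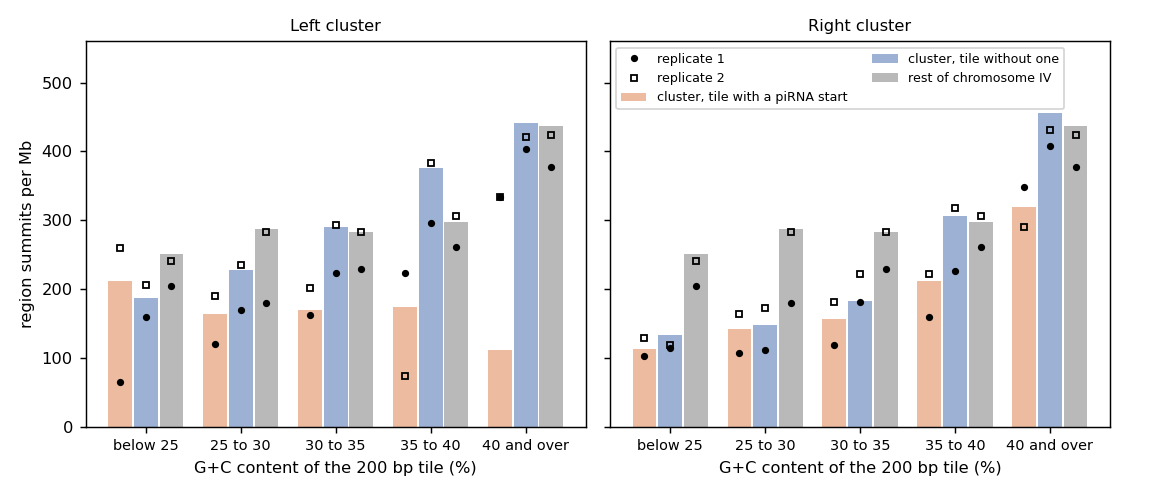
Region summits per Mb in 200 bp tiles, by the G+C content of the tile, for cluster tiles with an annotated piRNA start, cluster tiles without one and all tiles of the rest of chromosome IV (bars, pooled list; filled circles, replicate 1; open squares, replicate 2). Below 30% G+C the right cluster is low with or without a piRNA start, at 112.7 to 147.6 per Mb, beside 250.6 to 287.9 per Mb in the rest.

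Across bins of 100 kb, region number did not follow piRNA gene number closely. The left cluster had between 0 and 220 piRNA genes and between 8 and 52 regions a bin, and the right cluster between 24 and 486 piRNA genes and between 6 and 38 regions. Spearman's rho between the 2 numbers was -0.12 over the 25 bins of the left cluster and -0.13 over the 37 bins of the right cluster. Between piRNA genes and G+C content it was -0.42 and -0.70. Bins of a cluster share the same libraries, and these values describe them only.

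By gene annotation, fewer summits of the clusters lay in coding promoter windows, and less of the sequence did. The share was 31.9% of members (503 regions), against 38.0% of regions of the rest, a difference of -6.13 percentage points (-7.20 ± 0.494 in the replicates, SD, n = 2). Promoter windows covered 21.3% of the clusters and 28.3% of the rest, so both exceeded the share of sequence. Intergenic positions held 22.7% of members and 36.0% of cluster bases, against 15.9% and 19.7% in the rest. Introns held 24.7% of members and 24.1% of cluster bases. Of the piRNA genes of the clusters, 51.3% start in intergenic sequence, 30.6% in introns and 13.7% in coding promoter windows.

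The lower density near piRNA starts was seen within the 3 largest classes. In promoter windows it was 172.5 per Mb near starts and 435.2 per Mb elsewhere in the clusters. In intergenic sequence the values were 105.5 and 197.8, and in introns 188.7 and 300.3. In each of these 3 classes both replicates had the same direction, with 132.1 and 376.0 per Mb in promoter windows in replicate 1 and 201.8 and 433.3 in replicate 2. In coding sequence, with 15 summits near starts, the pooled values were 200.5 and 274.9, but replicate 1 gave 227.2 and 223.6. In UTRs, with 11 summits near starts, the pooled values were 580.6 and 581.3, with 158.3 and 477.5 in replicate 1 and 527.8 and 498.2 in replicate 2. In other non-coding genes and pseudogenes, with 4 summits near starts, they were 97.9 and 217.0, and lower near starts in both replicates too. Coding sequence and UTRs were therefore the classes in which the replicates did not share a direction.

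The 88 reproducible members divided into promoters, tRNA genes and other places. In promoter windows lay 44 of them (50%), against 113 of 195 in the rest (57.9%). Within 200 bp of a tRNA gene lay 20 (22.7%, interval 14.5% to 32.9%), against 15 in the rest (7.69%, interval 4.37% to 12.4%), and 29 were in neither class. tRNA genes are themselves denser in the clusters, with 6.61 per Mb against 2.66 per Mb in the rest. Of the 41 tRNA genes of the clusters, 21 had a reproducible summit within 200 bp (51.2%), and of the 30 in the rest 15 did (50%). The share of tRNA genes with a reproducible peak was therefore close in both, while tRNA genes were denser in the clusters. A piRNA start lay within 1000 bp of 40 of the 88 (45.5%), while 70.6% of cluster bases were that close to one. Within 100 bp of a start lay 5 (5.68%), against 29.8% of cluster bases.

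Genes that make or use piRNAs were looked up at their own promoters, across the genome. Of the 28 listed genes found in the annotation, 12 (42.9%) had a region in the promoter window, close to the 39.3% of all 19985 protein-coding genes, and 1 (3.57%) had a reproducible peak, against 6.33% of all. That gene was tofu-1, found in screens for piRNA production, with signals of 59.1 and 110.8 in the replicates and 174.2 pooled. Next came snpc-3.4 with 61.1 and henn-1, the methyltransferase that modifies the ends of piRNAs, with 53.7. For transcription of piRNA genes, snpc-4 and prde-1, which bind the clusters together, had weak regions of 18.3 and 20.7. The other 7 of the 12 lay between 14.8 and 28.7. prg-1 had no region in the pooled list and one of 10.5 in replicate 1. Of the listed genes, snpc-3.1 and slfl-4 lie in the left cluster: snpc-3.1 had no region, and slfl-4 had one of 15.8 that was in neither replicate's list.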

How the data were processed

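ChIP-seq of MADF-10 fused to GFP and FLAG was done on 2 biological replicates of whole young adult hermaphrodites, per the labels. Per the deposited readme files, the authors called regions in each replicate and in both pooled, against a control, and derived a reproducible list by irreproducible discovery rate. Not given in the sources used here: aligner, peak caller and settings, IDR threshold, depth per sample. The signal (column 7 of the authors' deposited lists for ce11) was used to describe and rank regions within a list only.

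Summits were counted on chromosome IV (17493829 bases) against Ensembl annotation release 115 of WBcel235, the assembly behind ce11, with coordinates counted from 1. Near means within 100 bp of the annotated 5' end of a piRNA gene on either side, and the share of bases near was computed over every base. Motif letters were searched on both strands around summits and on the gene's strand before piRNA starts. Where classes overlap, a summit was put first in promoter windows. Of 32 listed pathway names, 28 matched the annotation. Scripts ran in Python 3.11.15 with NumPy 2.4.6, pandas 2.3.3 and SciPy 1.17.1, and counting was tested on simulated data. Exact binomial intervals cover counting error only. They take the counted regions or genes as independent, while 1 summit can lie near several piRNA genes, so they can understate the spread. The genes named are the 12 strongest members and the 5 strongest near piRNA starts of each cluster, the neighbours of the window edges and the pathway list. The members and lists were chosen with earlier results of these data known. Alternatives changed the replicate list, the window limits, the merging of regions, the signal range, the distance, the motif and the promoter window.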

Additional observations from a re-analysis of the deposited data

How the results depend on the processing

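The ratio of region density, clusters over rest, was 0.706 in the upper 50% of the pooled list by signal, and the log2 difference of median signal there was -0.026. In the replicates' own lists these were 0.790 to 0.814 and -0.128 to -0.099. The difference in the reproducible share, +0.287 percentage points in the pooled list, was 0.597 with windows narrowed by 100 kb at each end and 1.77 in the upper 50%. It changed sign to -0.495 without regions at tRNA genes. By overlap with a reproducible peak it was -0.355 in the list of replicate 1 and -0.122 in that of replicate 2. Overlap is not the same measure as membership in the pooled list. The cause was not tested. The ratio of near summits to near bases over both clusters, 0.581, was 0.682 with 250 bp, 0.191 among reproducible peaks and 0.582 to 0.668 in the replicates. The share of piRNA genes with a summit was 1.17% with 50 bp and 7.50% with 250 bp, which follows from the distance itself. The log2 signal difference near starts was -0.27 with 50 bp, -0.24 without promoter and tRNA regions, and -0.32 to -0.27 in the replicates. The motif difference between clusters and rest, 7.10 percentage points, was 3.83 within 50 bp, 16.5 within 200 bp and 0.624 among reproducible peaks. The promoter difference was -4.49 with a window of 500 and 100 bp, and -7.55 to -6.85 in the replicates. Merging overlapping regions moved none of the 3 results it was run on, density, median signal and reproducible share, by more than the replicate SD. No paired analysis was possible because there is 1 group. Depth is unknown, so weak regions near the limit of calling cannot be weighed by reads, and a piRNA gene with no region is not shown to be unbound.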

Other observations

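Outside the clusters the annotation holds 1159 further piRNA starts. Of the 28401 regions there, 50 had a summit within 100 bp of one (0.176%), while 0.232% of bases did, a ratio of 0.757. By chromosome the ratio was 1.19 on V (12 regions) and 0.779 in the rest of IV (23 regions). On I, II, III and X, with 1 to 5 regions each, it was 0.639, 0.814, 0.179 and 0.543. These counts are small, and no test was made of the differences between chromosomes.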
